A study of Homo sapiens with 6 samples.

Results

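Amino acids cross membranes through carriers of the solute carrier (SLC) superfamily, and 60 human genes of 7 such families were followed here: SLC1, SLC3, SLC6, SLC7, SLC36, SLC38 and SLC43. They are all protein-coding genes of the deposited expression table whose symbols belong to these families, 60 of 58735 genes listed, and the rule uses symbols and biotype, not measured values. The families themselves, and the gene lists used later, were chosen with earlier results of these data known. The cells were SKM-1, a human acute myeloid leukaemia line grown in medium with fetal serum. The tested libraries came from cells given celastrol, a triterpenoid of the thunder god vine, for 48 h, and the controls from cells given the solvent DMSO; each treatment had 3 libraries. All 6 libraries are of the same cell line with no labelled genetic change, and the sources used here do not give the celastrol dose. The design asks which transcripts differ between celastrol and DMSO. Whether the 3 libraries of each treatment are separate cultures is not stated, so a p-value reflects only how these libraries scatter, possibly for technical reasons.

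The families divide by mechanism. SLC3A2 and SLC3A1 are single-pass heavy chains that hold the light chains of the SLC7 family at the cell surface, while the cationic carriers of SLC7 work alone. SLC1 carriers move glutamate or exchange small neutral amino acids, SLC38 carriers take up glutamine and related amino acids with sodium or work on lysosomes, SLC36 carriers are proton-coupled, SLC43 carriers are uniporters of large neutral amino acids, and SLC6 carriers use sodium and chloride for glycine, taurine, creatine and neurotransmitters. Many of these genes, SLC7A11, SLC7A5, SLC7A1, SLC1A4, SLC1A5, SLC6A9, SLC38A2 and SLC3A2 among them, are known targets of ATF4, the transcription factor that is made when amino acids run short. SLC7A11 and SLC3A2 are also known targets of NRF2, the factor of the antioxidant response.

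The libraries held between 15231742 and 16231066 listed reads with celastrol and between 13549187 and 15410904 with DMSO, recovered from FPKM (fragments scaled by gene length and by a library size that the authors set). Mitochondrial genes took 1.37 to 1.85% of reads with celastrol and 5.44 to 5.65% with DMSO. Of 12 markers fixed for a monoblastic leukaemia, 6 reached a mean of 1 FPKM, among them SPI1, PTPRC and LYZ. CD34 was listed at 0 in all 6 libraries. MPO, CSF1R, CD68 and CD14 stayed at or under 0.0337, 0.111, 0.203 and 0.441 FPKM. The 12 summed to 58.53 to 63.9 FPKM with celastrol and 72.05 to 80.04 FPKM with DMSO. Without overlap, 4 of them were higher with celastrol and 3 lower. All 12 erythroid markers reached 1 FPKM. Their summed level was 715 to 782 FPKM with celastrol and 851 to 920 FPKM with DMSO. Megakaryocyte markers summed to 1.48 to 2.12 FPKM with celastrol and 2.78 to 3.77 with DMSO, lymphoid markers to 10.5 to 11.8 with celastrol and 7.42 to 9.35 with DMSO, and epithelial and stromal markers to 15.0 to 16.5 with celastrol and 30.3 to 33.9 with DMSO, the last almost wholly from EPCAM. In bulk RNA, fewer cells of a type and less RNA per cell cannot be told apart.

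Promoter sequences of the genes at the centre of the results are shown first. RefSeq gave a promoter for 45 of the 60 genes (assembly GRCh38.p14, 250 bases before the transcript start and 50 after), and the tested genes without one were SLC7A11, SLC6A6 and SLC43A3. Those of SLC3A2, SLC7A5 and SLC7A1 follow, since they are a heavy chain that rose, its most abundant light chain, which fell, and the main carrier of arginine and lysine, which fell. Capitals mark matches on either strand to TGATGNAA (the core of the amino acid response element that ATF4 binds), TGACNNNGC (the core of the antioxidant response element that NRF2 binds) and CACGTG (the E-box); no matches overlapped in these windows.

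SLC3A2 (chr11:62881449-62881748, plus strand): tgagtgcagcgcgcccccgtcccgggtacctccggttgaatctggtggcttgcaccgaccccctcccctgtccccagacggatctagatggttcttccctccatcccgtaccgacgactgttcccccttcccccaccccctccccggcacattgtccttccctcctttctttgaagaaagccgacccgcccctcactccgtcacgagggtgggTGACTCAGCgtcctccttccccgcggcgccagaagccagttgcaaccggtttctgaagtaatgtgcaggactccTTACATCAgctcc

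SLC7A5 (chr16:87869458-87869757, minus strand): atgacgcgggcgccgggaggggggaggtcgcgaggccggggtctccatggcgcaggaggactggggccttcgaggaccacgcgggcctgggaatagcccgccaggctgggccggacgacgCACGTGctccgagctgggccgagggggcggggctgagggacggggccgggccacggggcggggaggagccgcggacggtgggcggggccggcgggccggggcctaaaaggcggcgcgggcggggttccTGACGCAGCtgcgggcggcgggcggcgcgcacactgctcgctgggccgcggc

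SLC7A1 (chr13:29595639-29595938, minus strand): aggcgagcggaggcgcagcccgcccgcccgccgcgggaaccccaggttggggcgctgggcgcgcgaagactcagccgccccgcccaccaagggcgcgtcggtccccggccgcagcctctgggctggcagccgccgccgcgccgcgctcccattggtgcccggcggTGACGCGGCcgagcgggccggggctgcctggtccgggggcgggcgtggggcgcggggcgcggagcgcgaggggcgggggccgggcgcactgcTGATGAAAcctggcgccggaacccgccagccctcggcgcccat

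With the transcript start base counted as 0, SLC3A2 held an antioxidant core at position -37 and an amino acid response core at position 37. SLC7A5 held an E-box at position -130 and an antioxidant core at -2. SLC7A1 held an antioxidant core at -85 and an amino acid response core at 7. The RefSeq start of SLC3A2 lay 25597 bases inside the gene as the deposited table bounds it, so other transcripts of this gene start upstream of the printed window. The starts used for SLC38A9, SLC7A8, SLC43A2 and SLC38A1 lay 60859, 28354, 23852 and 3501 bases inside those genes. Among the 22 tested genes with a RefSeq promoter, 3 held the amino acid response core (SLC3A2, SLC38A1 and SLC7A1), 4 the antioxidant core (these without SLC38A1, plus SLC7A5 and SLC7A6) and 5 the E-box. Of all 35116 promoters in the RefSeq table, 3.62% held the amino acid response core, 13.3% the antioxidant core and 7.26% the E-box. These shares are per listed promoter, while each tested gene was read only from its first listed promoter. A match describes letters in this window and not a bound site.

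Expression was concentrated in few of the 60 genes. A mean of at least 1 FPKM over the 6 libraries was reached by 25 genes, 20 lay above 0 but below 1 FPKM, and 15 had no read in any library. SLC43 was expressed in all of its 3 members and SLC38 in 7 of 11. SLC7 reached the minimum in 6 of 14, SLC6 in 5 of 19, SLC1 in 2 of 7, SLC36 in 1 of 4 and SLC3 in 1 of 2. None of the 5 glutamate carriers of SLC1 reached it: SLC1A2, SLC1A3 and SLC1A6 had no read, and SLC1A1 and SLC1A7 stayed at or under 0.0174 FPKM. The SLC6 carriers of noradrenaline, dopamine and serotonin, namely SLC6A2, SLC6A3 and SLC6A4, lay below 0.1 FPKM in every library or had no read. Of the 20 genes between 0 and 1 FPKM, 18 had at most 20 reads over all 6 libraries, and no difference was detectable for them at this depth. Other genes below the minimum included SLC7A4 and SLC7A14, of unclear function, SLC38A3, SLC38A4, SLC38A8 and SLC38A11, and SLC6A5, SLC6A7, SLC6A11, SLC6A12, SLC6A13, SLC6A14, SLC6A15, SLC6A17, SLC6A18 and SLC6A20. The highest value of any of these in 1 library was 0.222 FPKM, for SLC38A8.

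The 4 most abundant genes, SLC1A5, SLC3A2, SLC7A5 and SLC38A2, made up 59.2 ± 3.94% of the summed FPKM of the 60 genes in celastrol libraries and 61.8 ± 0.857% in DMSO libraries (SD, n = 3 each). That sum was 665 ± 47.4 FPKM with celastrol, against 725 ± 46.1 FPKM with DMSO. The libraries of the treatments overlapped. With celastrol the order by mean was SLC3A2, SLC1A5, SLC7A5 and SLC38A2, and with DMSO it was SLC1A5, SLC7A5, SLC3A2 and SLC38A2. Within a treatment, SLC3A2 and SLC1A5 overlapped between libraries with celastrol, and SLC3A2 and SLC38A2 overlapped with DMSO. The lowest celastrol library of SLC7A5, 70.3 FPKM, was above the highest of SLC38A2, 69.8 FPKM, by less than the spread of either gene.

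**Figure D1:**
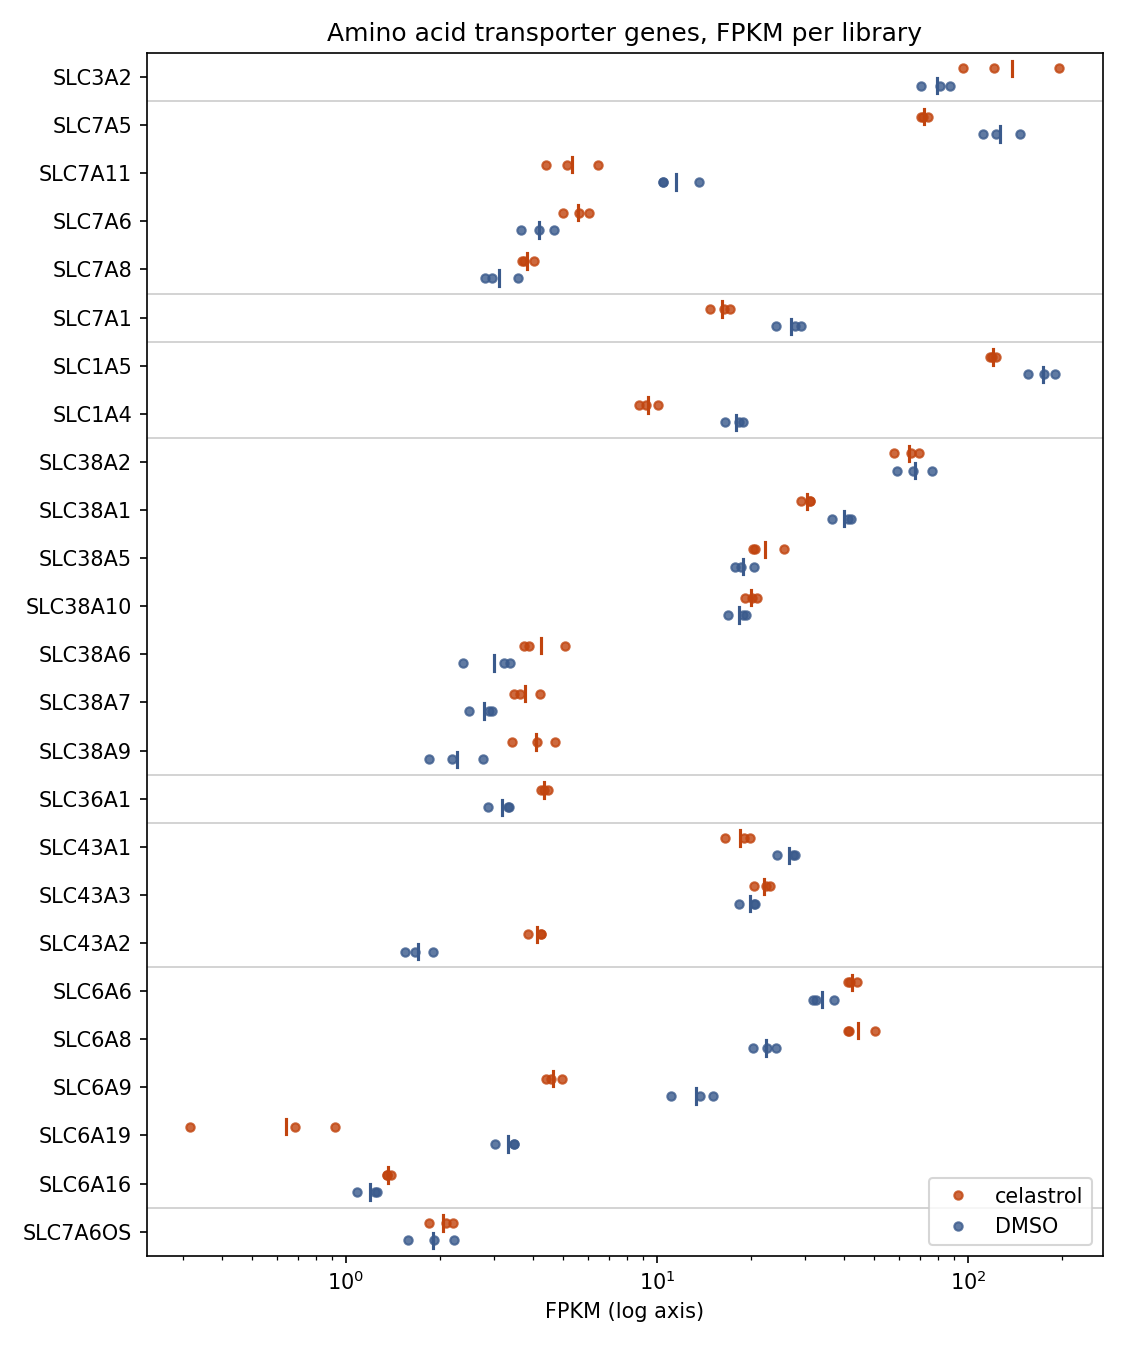
FPKM of the 25 genes with a mean of at least 1 FPKM, on a log axis, with 1 point per library and a short bar at the mean; celastrol points are above DMSO points for each gene, and lines separate the roles. SLC6A19 spans the widest range between treatments, with celastrol libraries at 0.316 to 0.925 FPKM and DMSO libraries at 3.01 to 3.48 FPKM.

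With celastrol 8 of the 25 tested genes rose and 9 fell, and 8 did not pass (limma-trend on log2(FPKM + 0.1), Benjamini-Hochberg adjusted p under 0.05 over all 12685 genes tested). Among all genes tested 29.5% were called, 15.3% higher and 14.2% lower, against 68% of these carriers. The families were chosen with earlier results of these data known, so this difference is no test of them. The genes that rose were SLC43A2, SLC6A8, SLC38A9, SLC3A2, SLC36A1, SLC38A7, SLC7A6 and SLC6A6, from the largest to the smallest log2 fold change. Those that fell were SLC6A19, SLC6A9, SLC7A11, SLC1A4, SLC7A5, SLC7A1, SLC1A5, SLC43A1 and SLC38A1. The median log2 fold change was 0.15 over the 25 genes and 0.02 over all genes tested, and the median size without sign was 0.49 against 0.24. Changes of at least 2-fold on this scale were found in 4 of the 25, SLC43A2 upward and SLC6A19, SLC6A9 and SLC7A11 downward, where 3.57% of all genes tested passed both criteria. SLC6A19 reached the minimum of 1 FPKM only through its DMSO libraries, so its difference was favoured by that filter. The celastrol and DMSO libraries did not overlap in 20 of the 25 genes, 11 higher and 9 lower, compared with 25.3% higher and 22.0% lower among all genes tested.

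Each of the 9 decreases held when any of the 6 libraries was left out, while the increases were less settled. The number of increases was 4 without celastrol replicate 2, 6 without celastrol replicate 1 or 3, 5 without DMSO replicate 2 and 4 without DMSO replicate 3, and it was 13 with reads scaled to the listed total or with TPM. The median log2 fold change of all genes tested was 0.12 and 0.26 under these scalings, so changes below that size are relative to the scaling. With mitochondrial genes left out of the listed total, 8 genes rose and 9 fell, as with FPKM. Of the 25 genes only SLC38A2 changed direction with the scaling.

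**Figure D2:**
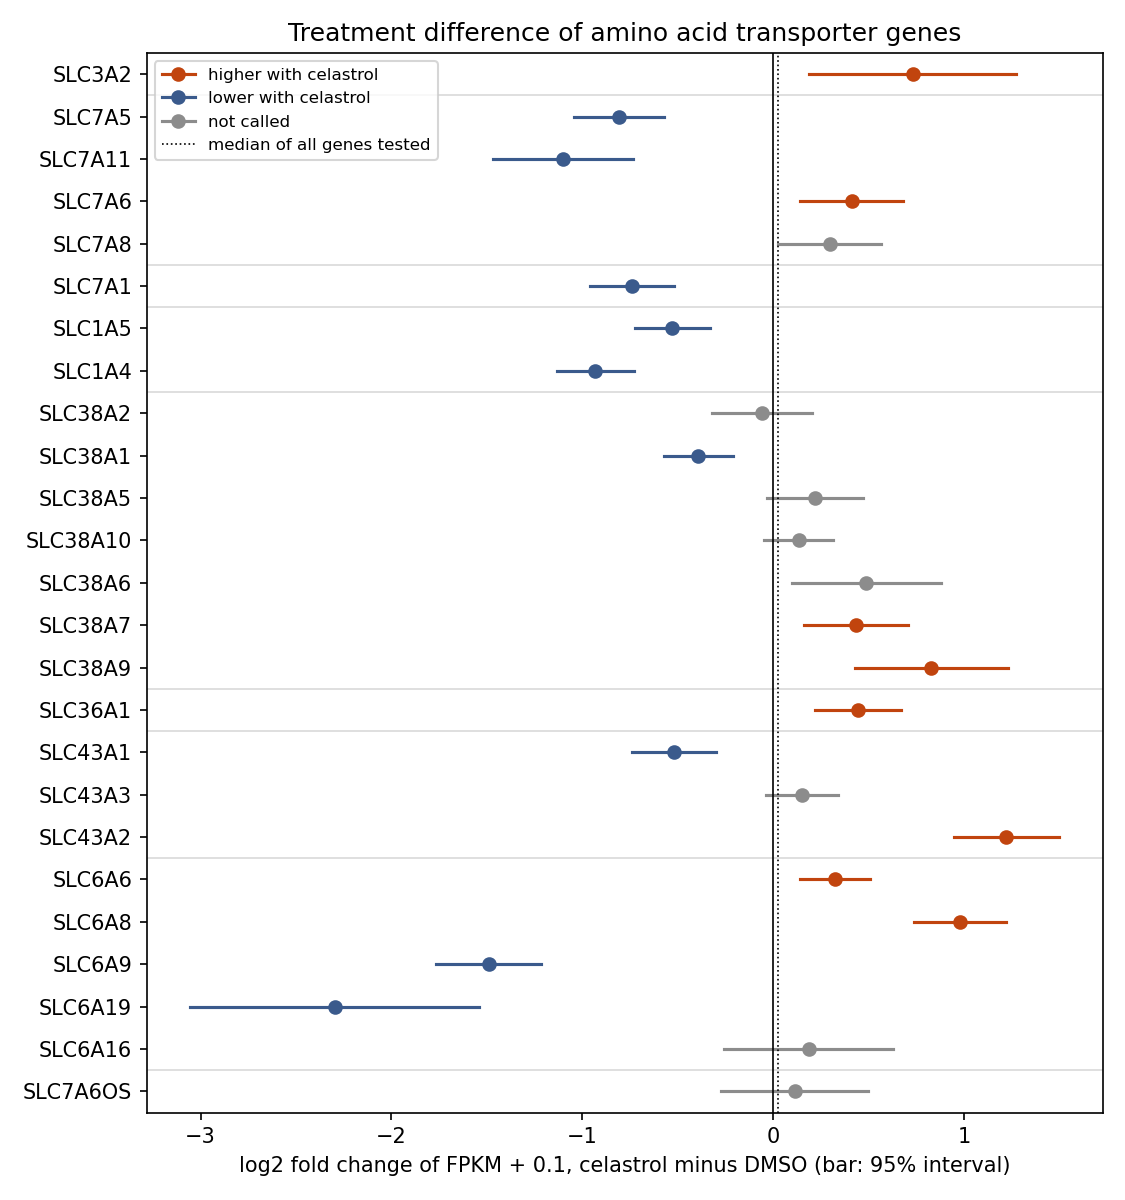
Log2 fold change of FPKM + 0.1, celastrol minus DMSO, for the 25 tested genes, with 95% intervals from limma; colours give the call, and the dotted line is the median of all genes tested at 0.02. Intervals of the 9 lower genes lie wholly below 0 and range from SLC6A19 at -2.30 to SLC38A1 at -0.39, and SLC43A2 at 1.22 is the highest.

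The heavy chain SLC3A2 rose, while of its 4 tested light chains SLC7A5 and SLC7A11 fell, SLC7A6 rose and SLC7A8 did not pass. SLC3A2, also called 4F2hc or CD98 (chromosome 11, 62856102 to 62888875), lay at 96.2, 122 and 196 FPKM in celastrol replicates 1 to 3, against 87.2, 70.5 and 81.4 FPKM in DMSO replicates 1 to 3. All celastrol libraries were above all DMSO libraries, and celastrol replicate 3 stood far above the other two. SLC3A2 rose by a log2 fold change of 0.73 (SE 0.23, adjusted p = 0.0496), just inside the threshold. Its adjusted p went past the threshold without any of 5 of the 6 libraries, between 0.0565 without celastrol replicate 3 and 0.120 without DMSO replicate 2, and it was 0.0171 without celastrol replicate 1. Without celastrol replicate 3 the log2 fold change was 0.45. SLC3A2 also did not pass with no filter on low genes (adjusted p = 0.158) or a minimum of 0.5 FPKM (adjusted p = 0.0624). By limma it passed with TPM (0.97, adjusted p = 0.00913), scaling to listed reads (adjusted p = 0.0286) and quantile normalization (adjusted p = 0.0386). It also passed with the replicate block (adjusted p = 0.0404) and by limma-voom (adjusted p = 0.00117). Celastrol replicate 3 was also the highest library for NQO1 and FTL, known targets of NRF2 that were picked after their values were seen. They lay at 58.0, 72.6 and 105 FPKM and at 4776, 5543 and 7734 FPKM in celastrol replicates 1 to 3, against 26.4 to 28.9 and 2721 to 2778 FPKM in DMSO libraries. SLC7A11, also named above as a target of NRF2, fell (log2 fold change -1.10). Among the celastrol libraries it too was highest in replicate 3, at 4.40, 5.14 and 6.47 FPKM in replicates 1 to 3. A part of NRF2 in these differences was not tested.

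SLC7A5, the LAT1 light chain that brings leucine and other large neutral amino acids into the cell in exchange for glutamine (chromosome 16, 87830023 to 87869488), lay at 74.3, 71.8 and 70.3 FPKM with celastrol and 146, 112 and 123 FPKM with DMSO. The groups were well apart, and the 3 celastrol libraries were close together. SLC7A5 fell by 0.81 on the log2 scale (SE 0.10, adjusted p = 0.00155), which is 1.76-fold lower between means. Its pseudogene SLC7A5P1, a near copy that can share reads with it, lay at 4.76 to 6.06 FPKM with celastrol and 5.56 to 7.47 FPKM with DMSO.

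SLC7A11, the xCT light chain that imports cystine in exchange for glutamate (chromosome 4, 138164097 to 138242349), lay at 4.40, 5.14 and 6.47 FPKM with celastrol and 10.5, 13.6 and 10.5 FPKM with DMSO. Every celastrol library was below every DMSO library. The log2 fold change was -1.10 (SE 0.16, adjusted p = 0.00266). An overlapping gene on the other strand, SLC7A11-AS1, had a mean of 0.171 FPKM with celastrol and 0.418 FPKM with DMSO, while the sources used here do not give how strand was counted.

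The remaining light chains had low levels. SLC7A6, the y+LAT2 chain that exchanges cationic for neutral amino acids, lay at 5.62, 6.03 and 5.00 FPKM with celastrol and 4.66, 3.64 and 4.18 with DMSO. It rose by 0.41 (SE 0.12, adjusted p = 0.0334), which did not hold with celastrol replicate 1 or 2 or DMSO replicate 2 or 3 left out (highest adjusted p = 0.118). SLC7A8, the LAT2 chain, lay at 3.67 to 4.03 FPKM with celastrol and 2.79 to 3.58 FPKM with DMSO and did not pass: its log2 fold change was 0.30, with a 95% interval of 0.02 to 0.57 and an adjusted p of 0.0958 by limma, and it passed as higher without DMSO replicate 1 (adjusted p = 0.0278), with TPM (adjusted p = 0.00642) and with scaling to listed reads (adjusted p = 0.0322). SLC7A7, the y+LAT1 chain, was under the minimum and not tested, at 0.420, 0.211 and 0.382 FPKM with celastrol (34, 18 and 33 reads), against 0.149, 0.130 and 0.0787 FPKM with DMSO (11, 9 and 6 reads). SLC7A9, SLC7A10 and SLC7A13 had no read. SLC3A1, the other heavy chain, stayed at or under 0.0194 FPKM. SLC7A6OS, which lies on the strand opposite SLC7A6 and overlaps it, is in the set by its name and is not an amino acid carrier. It averaged 2.05 FPKM with celastrol and 1.90 with DMSO, with a log2 fold change of 0.11 (95% interval -0.27 to 0.50).

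Set against each other per length, the 5 light chains SLC7A5, SLC7A6, SLC7A7, SLC7A8 and SLC7A11 summed to 88.4, 86.9 and 86.2 FPKM in celastrol replicates 1 to 3 and to 165, 132 and 141 FPKM in DMSO replicates 1 to 3. Divided by SLC3A2, this sum was 0.919, 0.715 and 0.440 with celastrol and 1.90, 1.87 and 1.73 with DMSO. Every celastrol library therefore had less light chain than heavy chain message per length, and every DMSO library had more. Which of them is the larger within a library depends on the gene lengths used, which are the authors' own. SLC7A5 made up 82.7 ± 1.24% of the light chain sum with celastrol and 86.9 ± 2.00% with DMSO, so its decrease carried most of the difference in the sum. The ratio of SLC7A11 to SLC3A2 was 0.0457, 0.0423 and 0.0330 with celastrol, against 0.120, 0.193 and 0.129 with DMSO. These ratios describe messages, not assembled carriers, and have no test of their own.

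**Figure D3:**
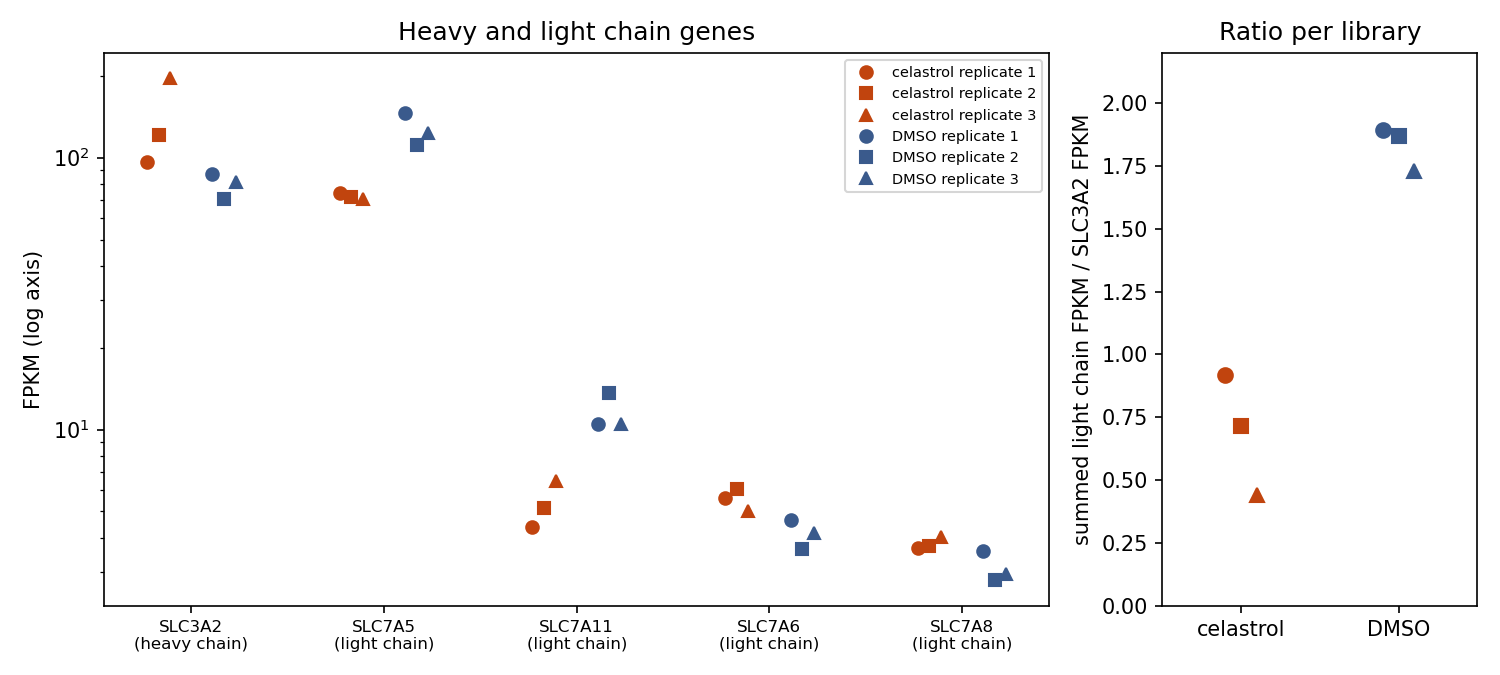
Left, FPKM per library (log axis) of the heavy chain SLC3A2 and of 4 light chains, celastrol left of DMSO. Right, the summed FPKM of SLC7A5, SLC7A6, SLC7A7, SLC7A8 and SLC7A11 divided by that of SLC3A2 in each library, 0.440 to 0.919 with celastrol and 1.73 to 1.90 with DMSO.

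The neutral amino acid exchangers of SLC1 fell. SLC1A5, the ASCT2 exchanger that takes up glutamine (chromosome 19, 46774883 to 46788594), lay at 123, 118 and 119 FPKM with celastrol and 191, 156 and 175 FPKM with DMSO. It fell by 0.53 on the log2 scale (SE 0.08, adjusted p = 0.00400). SLC1A4, the ASCT1 exchanger of serine, alanine and cysteine (chromosome 2, 64988477 to 65023865), lay at 10.1, 9.19 and 8.74 FPKM with celastrol, against 18.9, 16.5 and 18.3 FPKM with DMSO. Its log2 fold change was -0.93 (SE 0.09, adjusted p = 0.000466), so it fell about as far as SLC7A5. Both genes had non-overlapping groups. In SLC1A5 the celastrol libraries had the narrower spread (SD 2.90 FPKM, against 17.5 with DMSO). The cationic carrier SLC7A1, CAT1 (chromosome 13, 29509410 to 29595688), lay at 17.2, 16.4 and 14.8 FPKM with celastrol and 29.1, 24.1 and 27.7 FPKM with DMSO. It fell by 0.74 (SE 0.10, adjusted p = 0.00173). Of the other cationic carriers, SLC7A2 had no read and SLC7A3 reached at most 0.0594 FPKM.

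The SLC38 family was mixed, with 2 higher, 1 lower and 4 not called of 7 tested, where 29.5% of all genes tested were called. Its summed level was 149 ± 5.30 FPKM with celastrol and 153 ± 9.55 with DMSO. SLC38A2, the SNAT2 glutamine carrier that amino acid shortage induces in many cells (chromosome 12, 46358189 to 46372867), lay at 58.0, 65.8 and 69.8 FPKM with celastrol and 58.9, 76.8 and 66.4 FPKM with DMSO. The groups overlapped. SLC38A2 had a log2 fold change of -0.06 with a 95% interval of -0.32 to 0.20 (adjusted p = 0.727), and its sign turned with TPM (0.18) and with scaling to listed reads (0.04). That interval lies above the estimates for SLC7A5, SLC1A4, SLC7A1, SLC1A5 and SLC38A1, though the difference between genes was not tested. SLC38A1, the SNAT1 glutamine carrier, lay at 29.1, 31.0 and 31.1 FPKM with celastrol and 36.5, 41.1 and 42.1 with DMSO. It fell by 0.39 (SE 0.08, adjusted p = 0.00900), a call that TPM ended (adjusted p = 0.172). SLC38A5, SNAT5, lay at 20.3 to 25.7 FPKM with celastrol and 17.8 to 20.5 FPKM with DMSO, and SLC38A10 at 19.2 to 20.9 FPKM with celastrol and 16.9 to 19.3 FPKM with DMSO. Neither passed as deposited, with log2 fold changes of 0.22 (95% interval -0.03 to 0.47) and 0.13 (95% interval -0.05 to 0.31), and both passed as higher with TPM or scaling to listed reads. SLC38A6 also did not pass (0.49, 95% interval 0.10 to 0.88, adjusted p = 0.0638), although its celastrol libraries, at 3.73 to 5.06 FPKM, were all above its DMSO libraries, at 2.38 to 3.38. SLC38A6 passed as higher with TPM (adjusted p = 0.0105) and with scaling to listed reads (adjusted p = 0.0350).

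SLC38A9, SLC36A1 and SLC38A7, known from the lysosomal membrane, each rose from a low level. SLC38A9, which senses arginine in the lysosome for mTORC1 (chromosome 5, 55625845 to 55773194), lay at 3.43, 4.12 and 4.70 FPKM with celastrol and 1.85, 2.76 and 2.19 FPKM with DMSO. It rose by 0.83 (SE 0.17, adjusted p = 0.0111) and kept that call in all 16 alternatives run. SLC36A1, the proton-coupled exporter PAT1 (chromosome 5, 151437046 to 151492381), lay at 4.32, 4.24 and 4.46 FPKM with celastrol and 3.31, 2.85 and 3.34 with DMSO. It rose by 0.44 (SE 0.10, adjusted p = 0.0128), also in all 16. SLC38A7, SNAT7, an exporter of glutamine and asparagine from lysosomes, lay at 3.48, 3.63 and 4.22 FPKM with celastrol, against 2.88, 2.49 and 2.94 FPKM with DMSO. It rose by 0.43 (adjusted p = 0.0289), which did not hold with celastrol replicate 2 or 3 or DMSO replicate 2 or 3 left out (highest adjusted p = 0.0963). SLC36A4, under the minimum and not tested, lay at 0.772, 0.765 and 0.675 FPKM with celastrol, against 0.473, 0.613 and 0.570 FPKM with DMSO, so its groups did not overlap. SLC36A2 and SLC36A3 stayed at or under 0.0263 FPKM. These 3 genes were put together after their values were seen, so they are no test of the lysosome as a group. SLC29A3, a lysosomal nucleoside carrier outside the 7 families, had a log2 fold change of -0.36 and did not pass (adjusted p = 0.171); it too was named after its values were seen.

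Within SLC43, closely related carriers moved in opposite directions. SLC43A1, LAT3 (chromosome 11, 57484534 to 57515786), lay at 19.9, 19.0 and 16.5 FPKM with celastrol and 27.4, 24.2 and 27.8 with DMSO. It fell by 0.52 (SE 0.09, adjusted p = 0.00650). SLC43A2, LAT4 (chromosome 17, 1569267 to 1628886), which carries the same kind of large neutral amino acids, lay at 3.84, 4.23 and 4.22 FPKM with celastrol and 1.90, 1.55 and 1.67 with DMSO. It rose by 1.22 (SE 0.12, adjusted p = 0.000554), 2.40-fold between means. SLC43A2 remained the less abundant of the pair under both treatments. SLC43A3, which is known as a carrier of purine nucleobases and not of amino acids, lay at 20.6 to 23.1 FPKM with celastrol and 18.4 to 20.7 FPKM with DMSO and did not pass (log2 fold change 0.15, 95% interval -0.04 to 0.34, adjusted p = 0.194). SLC43A3 passed as higher with TPM (0.39, adjusted p = 0.00369) and with scaling to listed reads (adjusted p = 0.0317).

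The SLC6 family had 2 genes higher, 2 lower and 1 not called of 5 tested, where 29.5% of all genes tested were called. SLC6A19, the B0AT1 carrier of neutral amino acids known from gut and kidney (chromosome 5, 1201595 to 1225117), lay at 0.925, 0.685 and 0.316 FPKM with celastrol, from 77, 60 and 28 reads, and at 3.01, 3.46 and 3.48 FPKM with DMSO, from 229, 246 and 273 reads. It was 5.17-fold lower between means (log2 fold change -2.30, SE 0.33, adjusted p = 0.00254). SLC6A9, the GLYT1 carrier that supplies glycine and is needed for haem synthesis in red cell precursors (chromosome 1, 43991500 to 44031467), lay at 4.41, 4.58 and 4.93 FPKM with celastrol and 15.1, 11.1 and 13.7 FPKM with DMSO. Its log2 fold change was -1.49 (SE 0.12, adjusted p = 0.000251). Of the 12 erythroid markers, 8 were lower in every celastrol library than in every DMSO library, 2 were higher in every celastrol library and 2 overlapped. Among all genes tested, 22.0% were lower and 25.3% higher without overlap. The 4 markers named next were picked after their values were seen. KLF1, an erythroid transcription factor, lay at 39.1 to 52.4 FPKM with celastrol and 95.7 to 112 FPKM with DMSO. ALAS2, the enzyme that starts haem synthesis in red cell precursors, lay at 9.29 to 10.3 FPKM with celastrol and 25.2 to 31.7 FPKM with DMSO. The globin HBA2 lay at 15.2 to 18.2 FPKM in celastrol libraries and 43.8 to 51.4 FPKM in DMSO libraries. RHAG, a red cell membrane protein and the most abundant of the markers, was higher, at 284 to 296 FPKM with celastrol and 247 to 270.3 FPKM with DMSO. The summed level of all 12 was 715 to 782 FPKM with celastrol and 851 to 920 FPKM with DMSO. A lower sum was not particular to the erythroid list. The 12 monoblastic markers summed to 58.53 to 63.9 FPKM with celastrol and 72.05 to 80.04 FPKM with DMSO, though 4 of them were higher and 3 lower without overlap. The markers' part in the SLC6A9 result was not tested. CCDC24, which overlaps SLC6A9 on the other strand, averaged 1.84 FPKM with celastrol and 1.15 with DMSO, the opposite direction to SLC6A9.

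In the same family, SLC6A8, the creatine carrier (chromosome X, 153688099 to 153696593), lay at 50.2, 41.3 and 41.0 FPKM with celastrol and 24.1, 20.3 and 22.5 FPKM with DMSO. It rose by 0.98 (SE 0.10, adjusted p = 0.000754) and made up 47.3 ± 2.11% of the summed SLC6 level with celastrol and 30.2 ± 0.712% with DMSO. Its pseudogene SLC6A10P, a near copy, was listed at 0 in all 6 libraries, and PNCK, which overlaps it on the other strand, had a mean of 1.54 FPKM with celastrol and 1.07 FPKM with DMSO. SLC6A6, the taurine carrier (chromosome 3, 14402576 to 14489349), lay at 43.9, 41.2 and 41.6 FPKM with celastrol and 37.1, 32.5 and 31.8 with DMSO. It rose by 0.32 (SE 0.08, adjusted p = 0.0197), which did not hold with celastrol replicate 1 or 2 or DMSO replicate 3 left out (highest adjusted p = 0.0894). SLC6A16, whose substrate is not settled, lay at 1.35 to 1.39 FPKM with celastrol and 1.08 to 1.26 FPKM with DMSO and did not pass (0.19, 95% interval -0.26 to 0.63, adjusted p = 0.495). The SLC6 carriers that rose are known to take up taurine and creatine, which are not used to build proteins, and those that fell take up glycine and neutral amino acids. This grouping by substrate was made after the values were seen and was not tested.

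**Figure D4:**
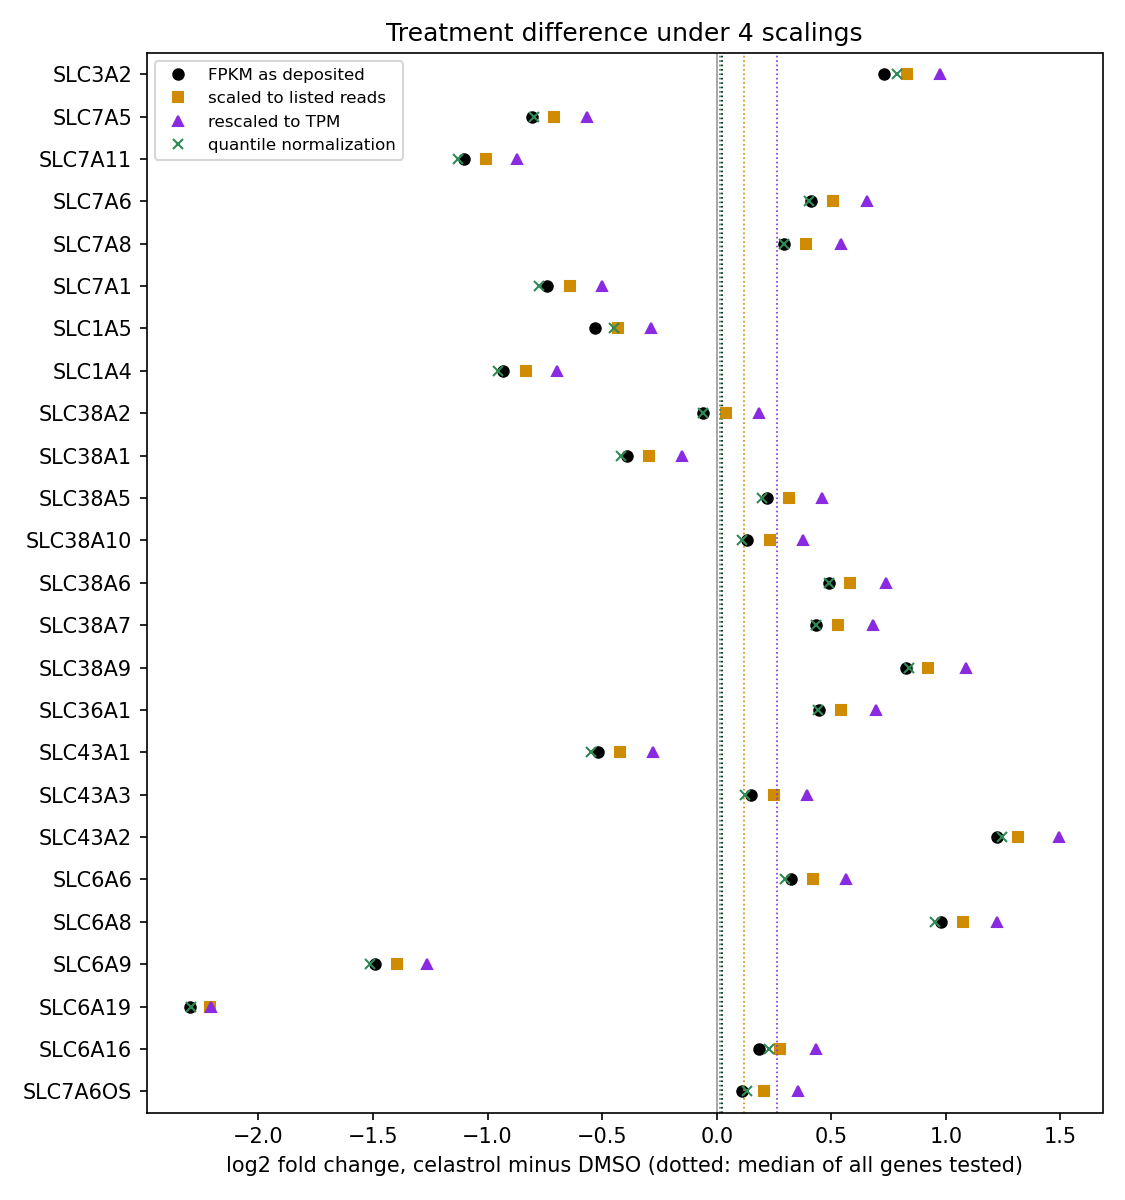
Log2 fold change, celastrol minus DMSO, of the 25 tested genes under 4 scalings: FPKM as deposited, reads scaled to the listed total, TPM and quantile normalization. Dotted lines are the medians of all genes tested, at 0.02, 0.12, 0.26 and 0.01; only SLC38A2 lies on both sides of 0.

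Genes that work with these carriers were read from 5 lists, with the 60 carriers left out of each. The lists share some genes, which are counted in every list that holds them. The amino acid response list holds ATF4, other genes of its response, and EIF2AK4, EIF2AK3 and EIF2S1, which act upstream of it. It had 22 members lower and 1 higher of 27 tested, with a median log2 fold change of -1.14. That is 85.2% called, where 29.5% of all genes tested were called and 14.2% were lower. This list too was chosen with earlier results of these data known. EIF2AK4 (-0.01), EIF2AK3 (0.004) and EIF2S1 (0.23), named after their values were seen, were not called. ATF4 itself, named after its values were seen, averaged 112 ± 9.97 FPKM with celastrol and 285 ± 13.1 with DMSO (log2 fold change -1.36, adjusted p = 9.86e-05). The largest decreases were in the glutathione-cleaving enzyme CHAC1 (-2.33), asparagine synthetase ASNS (-1.99) and the mTORC1 brake DDIT4 (-1.80). ASNS averaged 0.914 FPKM with celastrol and 3.93 with DMSO. It reached the minimum of 1 FPKM only through its DMSO libraries, so its difference was favoured by that filter. NUPR1, a stress-induced chromatin protein, rose by 1.49, at 8.06 ± 5.53 FPKM with celastrol and 2.44 ± 0.481 with DMSO, which did not hold with celastrol replicate 2 or any DMSO library left out (highest adjusted p = 0.0837). Among the carriers known as ATF4 targets that were named as background, SLC7A11, SLC7A5, SLC7A1, SLC1A4, SLC1A5 and SLC6A9 fell, SLC38A2 did not pass and SLC3A2 rose.

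The list of amino acid sensing to mTORC1 was called in 28.6% of 35 tested members, near the 29.5% of all genes tested, with 5 higher and 5 lower. Its larger increases were in SESN3, a sestrin (0.80), WDR24, a subunit of the GATOR2 complex (0.54), and TFE3, a lysosomal transcription factor (0.38), and its larger decreases in the leucine sensor SESN2 (-1.30), the mTOR subunit MLST8 (-0.48) and ITFG2, of the KICSTOR complex (-0.46). TFE3 kept its call only without DMSO replicate 1 among the left-out libraries (highest adjusted p = 0.111), and ITFG2 only without DMSO replicate 3 (highest adjusted p = 0.109). SESN2 is also on the amino acid response list. The list of cystine and glutamate use had 2 higher and 5 lower of 17, which is 41.2% called. Of its called genes, CHAC1 and GPT2 are also on the amino acid response list, and CTNS is also on that of carriers outside the families. Its share of calls is therefore not separate from the calls in those lists. CHAC1, the alanine aminotransferase GPT2 (-1.14) and glutamine synthetase GLUL (-0.89) fell, while CTNS (0.55) and GCLM, the modifier subunit of glutathione synthesis (0.54), rose. GCLM did not pass with celastrol replicate 2 or 3 or DMSO replicate 1 or 3 left out (highest adjusted p = 0.101).

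Of 14 tested carriers of amino acids, peptides or lysosomal efflux outside the 7 families, 7 were higher and 2 lower, where 15.3% of all genes tested were higher and 14.2% lower. With TPM, 9 were higher and 0 lower. The vesicular glutamate carrier SLC17A7 rose by 0.79, the lysosomal membrane protein MFSD1 by 0.62 and CTNS, the lysosomal cystine exporter, by 0.55, the last not without DMSO replicate 3 (adjusted p = 0.0605). SLC15A4, a lysosomal carrier of histidine and peptides, rose by 0.54, MFSD12, which brings cysteine into lysosomes, by 0.48, and PQLC2, the lysosomal exporter of cationic amino acids, by 0.36; these 3 were named after their values were seen. PQLC2 kept its call only without celastrol replicate 1 among the left-out libraries (highest adjusted p = 0.114). The mitochondrial carriers SLC25A29 and SLC25A38, for basic amino acids and glycine, fell by 0.41 and 0.40. SLC25A29 lost its call without any of the 6 libraries (highest adjusted p = 0.0871), and SLC25A38 with celastrol replicate 2 or DMSO replicate 3 left out (highest adjusted p = 0.0546). With TPM neither passed, at -0.18 for SLC25A29 (adjusted p = 0.242) and -0.16 for SLC25A38 (adjusted p = 0.116), and SLC25A29 also did not pass with scaling to listed reads (adjusted p = 0.0649). Of 10 tested genes of carrier traffic and turnover, 3 were higher and 1 lower, which is 40% called where 29.5% of all genes tested were called. SGK1, a kinase that keeps carriers at the cell surface, rose by 1.64, the arrestins ARRDC3 and TXNIP by 1.26 and 0.71, and the ubiquitin ligase NEDD4L fell by 0.70. SGK1 averaged 2.175 FPKM with celastrol and 0.627 with DMSO. It reached the minimum of 1 FPKM only through its celastrol libraries, so its difference was favoured by that filter.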

How the data were processed

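Gene-level values were measured by RNA-seq of SKM-1 cells in 6 libraries. The deposited table holds FPKM for 58735 genes, made by the authors with HISAT2 2.0.5, featureCounts 1.5.0-p3 and the human build GRCh38 (hg38), per the submitters' processing notes. Its gene lengths are the authors' own column, and settings, strand and annotation were not given in the sources used here; identifiers and positions matched GENCODE release 29 for all 58735 genes. FPKM times gene length gave whole reads for 100% of values within 0.001 reads. The library size behind the FPKM was 1.04 to 1.05 times the listed reads with celastrol and 0.963 to 0.994 times with DMSO. With DMSO it lay below the listed reads, so it is no plain total of reads, and how it was set is not given. Deposited FPKM and listed-read scaling therefore differ between treatments.

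Log2(FPKM + 0.1) of the 12685 genes with a mean of at least 1 FPKM over the 6 libraries was fitted with limma 3.58.1 (limma-trend, treatment only, R 4.3.3), two-sided. All adjusted p-values are Benjamini-Hochberg values from limma over all genes tested, with a threshold of 0.05. Fold changes are on the log2(FPKM + 0.1) scale and understate low genes; folds between means are on FPKM. The fit was tested on simulated data in which few genes changed, as many up as down, with a common spread. That simulation does not cover the many changed genes or the shift of mitochondrial reads seen here. Groups came from the treatment labels. No 2 libraries agreed within sampling noise. The gene families and lists were chosen with earlier results of these data known. Values are given for all carriers of at least 1 FPKM, for those under it whose groups did not overlap and whose higher mean reached 0.3 FPKM, and for up to 3 called genes per list and direction; other low carriers are named with their highest value or a range. Other genes named after their values were seen are marked in the text; overlapping genes, near copies and cell type markers are given beside the results they touch. Alternatives were pseudocounts, filters, scalings, limma-voom, a replicate block and each library left out.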

Additional observations from a re-analysis of the deposited data

How the results depend on the processing

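Over 16 alternatives, 12 of the 17 called carriers kept their direction and call in all: SLC1A4, SLC1A5, SLC36A1, SLC38A9, SLC43A1, SLC43A2, SLC6A19, SLC6A8, SLC6A9, SLC7A1, SLC7A11 and SLC7A5. With TPM, 13 carriers were higher and 8 lower, with 5266 genes higher and 813 lower and 36 list genes higher. Reads scaled to the listed total gave 13 carriers and 3024 genes higher, and limma-voom on those reads, added after the data were seen, gave 13 and 3650. The share of calls that were higher was 52.0% with FPKM, 86.6% with TPM and 70.0% with listed reads. With no filter, 5 carriers and 9 list genes were higher. Leaving out single libraries gave 4 to 8 carriers higher, 1125 to 1937 genes higher, 987 to 1767 genes lower and 9 to 15 list genes higher; the smaller fits have fewer samples. SLC38A2 turned positive with TPM (0.182), listed reads (0.0392), limma-voom (0.0401), without celastrol replicate 1 (0.0160) and without DMSO replicate 2 (0.0400), and ran from -0.151 to 0.0400 over the left-out libraries. SLC7A6OS ran from -0.0102, without DMSO replicate 2, to 0.224. With the replicate number as a block, 8 carriers were higher and 9 lower and 1776 genes higher and 1617 lower; SLC7A6 lost its call (adjusted p = 0.0517) and SLC38A6 gained one (adjusted p = 0.0470). Correlations of same-numbered libraries, over all genes tested, were -0.02, -0.03 and 0.03. They cannot exclude a pairing that touches only some genes. Whether same-numbered libraries were handled together is not stated. The cause of these shifts was not tested beyond the settings named. The edgeR, DESeq2 and TMM-scaled limma-voom alternatives were not run; of the tests on recovered reads only limma-voom with listed totals was. The least covered library of a tested carrier had 28 reads, and genes of at most 20 reads in all give no detectable difference.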
